A study of Mus musculus with 2 samples.

Results

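The distal ends of the mouse autosomes were examined for what became of CpG methylation there in cells with an impaired Dnmt1, the maintenance methyltransferase. The CpGs described here are those that lie within 2 Mb of the last measured CpG of each of chromosomes 1 to 19, a rule that uses position and no methylation value. They numbered 33213 of the 1790826 CpGs in the table, or 1.85%, with 507 to 5072 on a chromosome. The assay was an extended-coverage form of reduced-representation bisulfite sequencing (RRBS): restriction fragments are treated with bisulfite, which turns unmethylated cytosines into uracil and leaves methylated ones to be read as C. Mouse embryonic fibroblasts (MEFs), cells grown out of embryos, were of genotype Dnmt1+/+ or Dnmt1-/-. The Dnmt1-/- cells carry a hypomorphic Dnmt1 allele (Dnmt1 n/n) on both chromosomes. Both lines lack trp53, so the control is a trp53-/- line and not a wild-type one. Both were established lines received from another laboratory, and the table holds no measure of expression by which the cell type could be checked. Each genotype had 1 library and no replicates, so every difference below is between 2 libraries and carries counting error only. The windows held 1474606 methylation calls in Dnmt1+/+ and 1508475 in Dnmt1-/-, with a median depth of 33 calls at a CpG in both. At that depth a CpG with 0 methylated calls allows a level of up to 9.09%.

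Telomeres are tandem TTAGGG repeats that cap each chromosome, and the stretch just inside them is called subtelomeric. Mouse autosomes are acrocentric: the centromere lies close to one end, so the distal end is the end of the long arm. Subtelomeric CpGs are densely methylated in normal somatic cells, and Dnmt1 copies that methylation to the new strand after each replication, while the de novo methyltransferases Dnmt3a and Dnmt3b can add it without a template. The assembly does not contain the full telomeric arrays, and repeats in the sequence beside them were not separated from the rest. The last measured CpG lay between 55 bp (chromosome 19) and 44918 bp (chromosome 3) from the assembled end. In the last 100 kb of assembled sequence the hexamer TTAGGG, counted on both strands, occurred 33 to 155 times on a chromosome (median 48), against 39.9 to 41.9 per 100 kb over whole chromosomes. A tandem run of at least 3 hexamers was present there on 8 chromosomes, the longest of 75 units on chromosome 18.

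CpGs that lie inside CCGG or TCGA were kept apart. In the windows 13405 CpGs were of this kind, and they read high in both libraries (mean 79.9% for Dnmt1+/+ and 56.1% for Dnmt1-/-). Only 2.04% of them were at 20% or less in Dnmt1+/+, against 56.9% of the remaining CpGs. The 19808 remaining CpGs of the windows are called other CpGs, and levels below are means over other CpGs unless stated. Where the difference was tested for single CpGs, the calls of the 2 libraries were set against each other by Fisher's exact test (two-sided), adjusted by Benjamini-Hochberg over all CpGs of the table, and an adjusted p under 0.05 counted as called.

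The sequences at the very ends show what was read. The 3 stretches of 100 bp that follow are the outermost measured CpGs on the 3 chromosomes where these lie nearest the end of the assembly. They are given 5′ to 3′ on the forward strand of NCBIM37 (mm9), with measured CpGs in capitals, and none overlaps an annotated gene.
Chromosome 4 end, chr4:155629429-155629528: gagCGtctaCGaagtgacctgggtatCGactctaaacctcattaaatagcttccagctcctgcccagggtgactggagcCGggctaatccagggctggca
Chromosome 11 end, chr11:121842917-121843016: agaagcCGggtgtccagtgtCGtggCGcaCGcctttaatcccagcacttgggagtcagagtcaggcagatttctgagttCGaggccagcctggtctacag
Chromosome 19 end, chr19:61342296-61342395: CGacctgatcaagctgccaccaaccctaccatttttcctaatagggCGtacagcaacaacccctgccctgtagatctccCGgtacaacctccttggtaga

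In the chromosome 11 stretch 3 other CpGs had a mean of 99.4% for Dnmt1+/+ and of 0.709% for Dnmt1-/-. On chromosome 4 the means of 2 such CpGs were 83.0% and 16.2%. The single other CpG at the end of chromosome 19 was already low, at 11.8% in Dnmt1+/+ and 2.27% in Dnmt1-/-.

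A second set of stretches shows the kinds of sequence that fell furthest, rose furthest or kept most methylation among 1 kb tiles of the windows with at least 10 other CpGs. Each is the 200 bp with the most measured CpGs in its tile, written in the same way.
Krt72-ps, chr15:101616528-101616727, fell: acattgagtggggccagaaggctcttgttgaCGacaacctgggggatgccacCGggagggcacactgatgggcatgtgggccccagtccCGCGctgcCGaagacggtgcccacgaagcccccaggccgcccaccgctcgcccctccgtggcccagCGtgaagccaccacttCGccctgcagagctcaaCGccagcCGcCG
Intergenic CG repeat, chr5:150623326-150623525, fell: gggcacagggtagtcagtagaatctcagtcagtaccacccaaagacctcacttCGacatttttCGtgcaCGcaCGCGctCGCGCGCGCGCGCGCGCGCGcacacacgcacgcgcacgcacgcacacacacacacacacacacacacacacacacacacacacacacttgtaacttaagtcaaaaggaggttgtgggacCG
Hoxc4 exon, chr15:102865384-102865583, rose: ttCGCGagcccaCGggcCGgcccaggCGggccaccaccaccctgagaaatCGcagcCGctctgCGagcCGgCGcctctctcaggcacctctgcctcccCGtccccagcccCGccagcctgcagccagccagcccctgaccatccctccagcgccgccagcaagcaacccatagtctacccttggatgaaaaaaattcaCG
Hoxc5 and Mir615, chr15:102845352-102845551, rose: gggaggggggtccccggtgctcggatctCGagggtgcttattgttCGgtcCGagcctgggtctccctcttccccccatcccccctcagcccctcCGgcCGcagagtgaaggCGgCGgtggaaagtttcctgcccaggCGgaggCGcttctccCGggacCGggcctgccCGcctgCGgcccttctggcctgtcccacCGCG
Gm15784 exon, chr6:149310159-149310358, kept most: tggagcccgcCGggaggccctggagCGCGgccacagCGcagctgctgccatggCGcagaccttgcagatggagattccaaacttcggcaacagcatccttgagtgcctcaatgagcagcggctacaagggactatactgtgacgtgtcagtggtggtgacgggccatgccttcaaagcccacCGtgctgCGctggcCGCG

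In the Krt72-ps stretch the other CpGs went from 93.5% to 5.34%, and in the CG repeat from 98.8% to 15.03%. In the Hoxc4 stretch they went from 4.23% to 60.3%, and in the Hoxc5 stretch from 8.10% to 50.01%. In the Gm15784 stretch 8 other CpGs stood at 99.4% in Dnmt1+/+ and 74.3% in Dnmt1-/-.

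Methylation near the distal ends fell by about as large a share as elsewhere. The windows stood at a mean of 36.5% in Dnmt1+/+ and 11.8% in Dnmt1-/-, so that Dnmt1-/- stood at 32.2% of the Dnmt1+/+ level. The rest of the autosomes averaged 45.1% and 15.2%, or 33.7%. Both means were lower in the windows, but not on every chromosome: the Dnmt1+/+ window was below the rest of its chromosome on 12 of 19 and above it on 7 (difference -18.2 to 17.6 points), and the Dnmt1-/- window below on 16 and above on 3. With equal weight for each chromosome the difference over all CpGs was -2.90 points in Dnmt1+/+ and -2.52 in Dnmt1-/-. Their composition also differed, since 55.8% of their other CpGs lay within 1 kb of an annotated transcription start, against 47.7% in the rest, and each had on average 15.5 CpGs within 100 bp, against 14.04. With the rest reweighted to the composition of the windows, the difference over all CpGs shrank from -7.88 to -1.65 percentage points for Dnmt1+/+, and for Dnmt1-/- it shrank from -4.22 to -1.25. Over all CpGs the windows averaged 54.0% and 29.6%, and the 2 Mb at the opposite, proximal end of each chromosome 58.9% and 31.3%. On either side of the 2 Mb limit all CpGs averaged 58.2% and 30.7% in the 100 kb just inside it and 53.0% and 29.3% in the 100 kb just outside.

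Of the 33213 CpGs of the windows, 12834 were called lower in Dnmt1-/-, or 38.6%, against 43.7% over the whole table. A further 322 were called higher, or 0.970%, against 0.462% over the table. Among other CpGs 7385 were called lower (37.3%, against 44.2% of all other CpGs) and 253 higher (1.28%, against 0.635%). The windows thus held fewer falls and more rises than the table, and many of the rises came from 1 locus, described further on. They also held fewer CpGs with much to lose: 29.0% of their other CpGs were at 80% or more in Dnmt1+/+, against 38.0% in the rest of the autosomes. Of such highly methylated CpGs 90.5% were called lower in the windows and 88.1% in the rest.

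In means over all CpGs of a bin, distance from the end separated the outermost stretch from what lay behind it. In the last 250 kb the mean of 1910 other CpGs was 51.2% for Dnmt1+/+ and 13.0% for Dnmt1-/-. In the next bin, 250 to 500 kb, they averaged 29.2% and 9.27%. From there the Dnmt1+/+ level went up inward, to 31.4% at 0.5 to 1 Mb, 35.03% at 1 to 1.5 Mb, 39.9% at 1.5 to 2 Mb and 49.0% at 4 to 10 Mb. The Dnmt1-/- level stayed within 9.27% to 17.4% in every bin. The Dnmt1-/- level as a share of Dnmt1+/+ was lowest in the last 250 kb, at 25.3%. At 0.5 to 1 Mb, the bin that holds the HoxC cluster, it was 39.6%, and without that cluster 33.6%, below the 35.5% at 4 to 10 Mb. Promoter CpGs made up 40.3% of the other CpGs in the last 250 kb and 66.1% of those at 250 to 500 kb, and intergenic CpGs 40.7% and 19.6%. The step between these bins was not shared by all chromosomes. Chromosome 4, with 701 of the 2598 other CpGs at 250 to 500 kb, went inward from 41.3% to 19.3% in Dnmt1+/+, and chromosome 2 from 62.8% to 14.5%. Chromosome 13 went the other way, from 29.2% to 91.0%, as did chromosome 17, from 52.5% to 82.5%.

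**Figure D1:**
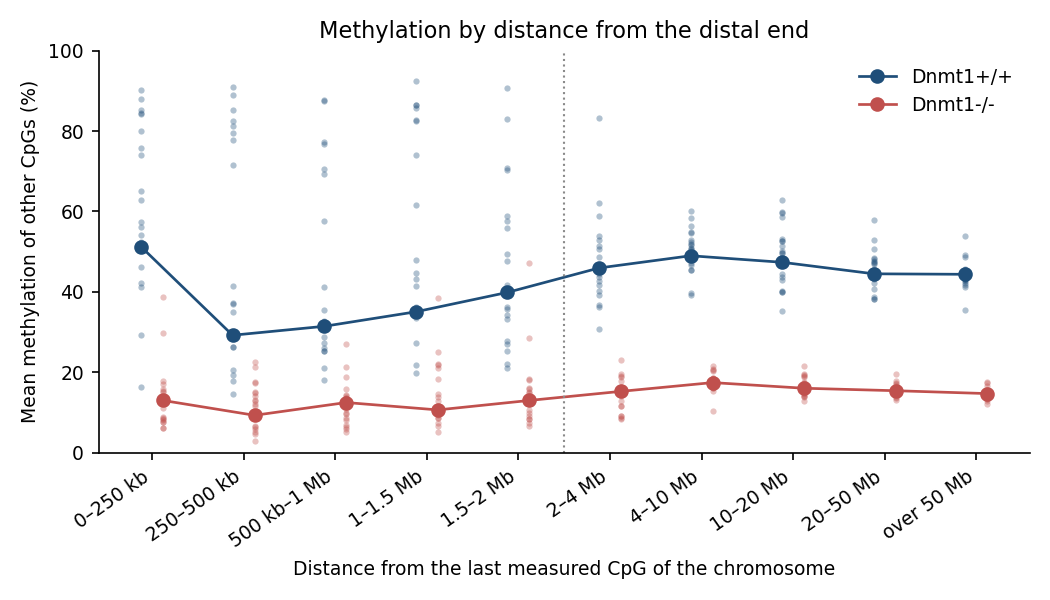
Mean methylation of other CpGs (y axis, %) in bins of distance from the last measured CpG (x axis, bins of unequal width), in Dnmt1+/+ (blue) and Dnmt1-/- (red). Large points are means over all CpGs of a bin, small points single chromosomes, and the dotted line marks 2 Mb; the Dnmt1+/+ mean is 51.2% in the last 250 kb and 29.2% in the next bin, while the Dnmt1-/- mean stays between 9.27% and 17.4%.

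The last 250 kb were more methylated than the rest of the same chromosome in Dnmt1+/+ on 15 of 19 chromosomes, and less methylated than it in Dnmt1-/- on 14 of 19. By chromosome the Dnmt1+/+ level there lay between 16.4% and 90.2%, and the Dnmt1-/- level between 6.19% and 38.6%, over 22 to 415 other CpGs. The measured CpGs of the outermost sequence thus differed widely in level between chromosomes in the control. Over all chromosomes the promoter CpGs there averaged 23.1% in Dnmt1+/+ and the intergenic ones 72.6%. The chromosome values were not adjusted for this mix.

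To separate how much methylation was kept from how much there was to lose, CpGs at 80% or more in Dnmt1+/+ were followed into Dnmt1-/-. In the windows 5736 other CpGs met this, with a mean of 94.3% in Dnmt1+/+. In Dnmt1-/- they averaged 28.7% (median 21.98%, quartiles 7.50% and 45.0%), and their pooled calls gave 29.1% (95% Wilson interval 28.9% to 29.3%). In the rest of the autosomes 363103 such CpGs averaged 32.2% in Dnmt1-/- and gave 32.8% pooled, and 6157 in the proximal 2 Mb averaged 29.5% and gave 27.5% pooled (27.4% to 27.7%). The distal windows thus differed from the rest by -3.47 points. In the same comparison the proximal ends were also below the rest. Only 4.76% of the highly methylated distal CpGs remained at 80% or more in Dnmt1-/-, which was 273 CpGs, against 6.37% in the rest.

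The level kept was lowest at the very end. In the last 250 kb 803 highly methylated CpGs averaged 24.7% in Dnmt1-/- (pooled 22.6%, interval 22.1% to 23.1%), and 56.0% of them were at 20% or less. At 250 to 500 kb the mean was 30.0%, at 0.5 to 1 Mb 29.0%, at 1 to 1.5 Mb 27.4% and at 1.5 to 2 Mb 30.7%. It reached 34.3% at 4 to 10 Mb and was 31.3% over 50 Mb from the end. In these means all 5 bins inside the windows lay below all 5 bins outside. In pooled calls this did not hold. The bin at 1.5 to 2 Mb gave 32.3% (31.9% to 32.6%), above the 31.8% (31.7% to 31.8%) over 50 Mb from the end.

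**Figure D2:**
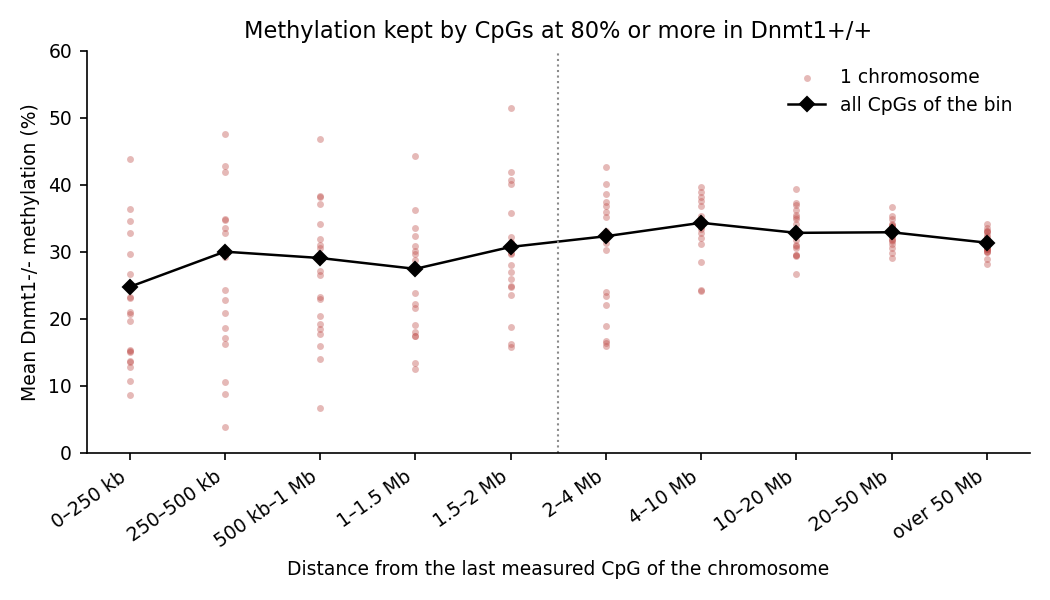
Mean Dnmt1-/- methylation (y axis, %) of other CpGs that were at 80% or more in Dnmt1+/+, by distance from the last measured CpG (x axis, bins of unequal width). Diamonds are means over all CpGs of a bin and red points single chromosomes; the mean is lowest, 24.7%, in the last 250 kb and highest, 34.3%, at 4 to 10 Mb, and chromosomes scatter more in the narrow bins near the end.

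Chromosomes did not behave alike. The 2 Mb window kept less than the rest of its chromosome on 14 of 19 (median difference -6.76 points, range -16.1 to 5.003). Chromosome 17 had the lowest window, at 16.3% against 32.5% in its rest, and chromosome 10 was at 24.8% against 34.8%. Windows above their chromosome's rest were those of chromosome 8 (36.2% against 33.8%), chromosome 11 (35.7% against 32.3%), chromosome 9 (34.8% against 29.8%), chromosome 6 (33.4% against 30.8%) and chromosome 7 (33.3% against 31.2%). When each chromosome was left out in turn the difference stayed between -3.11 and -4.58 points, and with equal weight for each chromosome it was -5.04. A window of 5 Mb instead of 2 Mb reduced it to -0.645 points.

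For the last 250 kb the differences were larger, with no adjustment for sequence class. The highly methylated CpGs there kept less than the rest of their chromosome on 16 of 19 chromosomes, with a median difference of -12.2 points and a range from -23.0 to 13.0, over 17 to 139 CpGs each. The lowest were chromosome 12, at 8.64%, and chromosome 11, at 10.7%, while the rest of these chromosomes stood at 31.6% and 32.3%. The exceptions were chromosome 6 (43.8% against 30.8%), chromosome 4 (36.4% against 32.3%) and chromosome 7 (34.6% against 31.2%). On chromosomes 8, 9 and 11 the last 250 kb were low although the whole window was not.

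**Figure D3:**
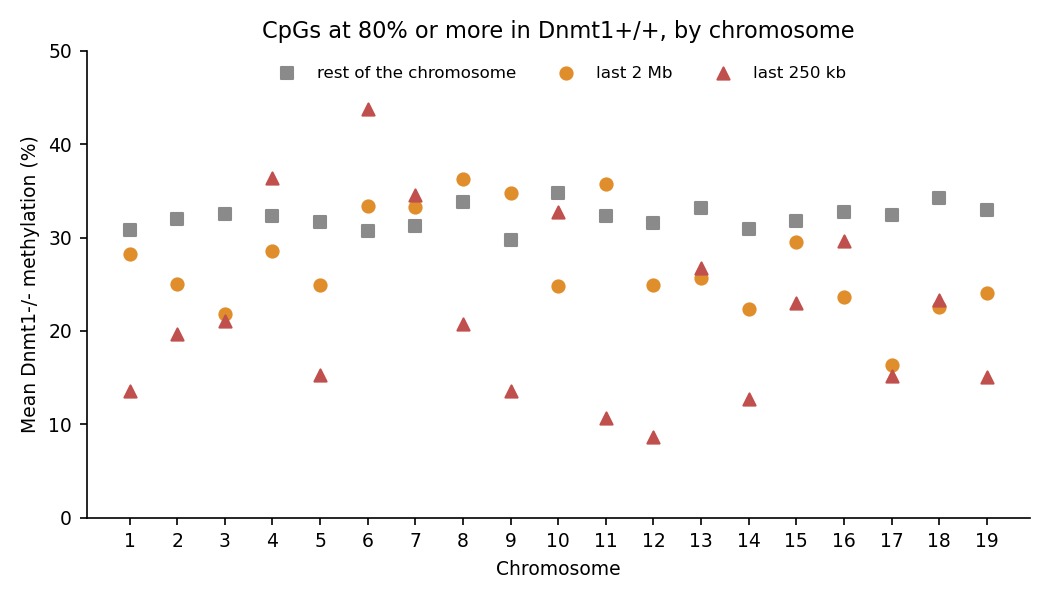
Mean Dnmt1-/- methylation (y axis, %) of other CpGs at 80% or more in Dnmt1+/+, for each chromosome (x axis), in the last 250 kb (triangles), the last 2 Mb (circles) and the rest of the chromosome (squares). Triangles lie below squares on 16 of 19 chromosomes and circles below squares on 14 of 19; chromosomes 4, 6 and 7 have triangles above squares.

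Such low windows were not confined to the ends. When each chromosome was divided into 250 kb windows counted from its end, 7080 windows had at least 15 highly methylated CpGs, with a median of 30.4% in Dnmt1-/- and quartiles of 20.7% and 39.0%. The outermost window was in the lowest 25% of its chromosome's windows on 10 of 19 chromosomes, below the median on 15 and in the highest 25% on 1. On chromosome 12 it ranked 7 from the lowest of 313 windows, on chromosome 11 20 of 380 and on chromosome 1 36 of 527. With 2 Mb windows the distal window was in the lowest 25% on 7 of 19 chromosomes and was the lowest on none.

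Sequence class moved with these values. Among highly methylated CpGs of the windows those in exons kept 34.9%, against 41.0% in the rest, those in introns 29.2% against 35.1%, those in promoters 32.6% against 34.7%, and intergenic ones 23.8% against 25.5%. In these pooled means exons kept most and intergenic sequence least in both places. By chromosome, where a class had at least 20 such distal CpGs, the distal value was the lower on 6 of 9 chromosomes for exons, 11 of 15 for introns, 5 of 8 for promoters (difference -18.2 to 34.1 points) and 12 of 19 for intergenic sequence (median difference -0.970 points). In the last 250 kb 505 of the 803 highly methylated CpGs were intergenic, against 146062 of 363103 in the rest of the autosomes. These 505 kept 19.18%, and the intronic ones of the last 250 kb kept 30.2%. The exonic ones went the other way, with 43.3% kept by 92 CpGs. With the rest reweighted to the class and CpG density of the windows the difference was -3.66 points.

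Local CpG density gave the same order inside and outside the windows. Distal highly methylated CpGs with 1 to 3 CpGs within 100 bp kept 22.7%, those with 4 to 6 kept 27.4%, those with 7 to 10 kept 30.0% and those with 11 to 20 kept 33.3%. In the rest these values were 25.8%, 30.5%, 34.5% and 36.8%. The 15 distal CpGs with over 20 neighbours kept 55.3%, against 45.5% of 2014 in the rest.

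In 1 kb tiles with at least 5 other CpGs, 380 of 943 distal tiles were lower in Dnmt1-/- by at least 25 points, or 40.3%, against 48.0% of all tiles. Another 12 were higher by as much, or 1.27%, against 0.338%. Of the distal tiles, 482 were at 20% or less in both libraries (51.1%, against 44.3% in the rest). The 289 distal tiles at 80% or more in Dnmt1+/+ had a median of 27.2% in Dnmt1-/-, against 33.0% in the rest, and ran from 0.426% to 83.5%.

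Among distal tiles with at least 10 other CpGs, that with the largest fall covered the start of Krt72-ps, a keratin locus on chromosome 15, where 10 other CpGs were at 93.8% in Dnmt1+/+ and 6.55% in Dnmt1-/-. Pooled calls gave 95.03% (92.0% to 97.0%) and 4.81% (3.16% to 7.23%), and each of the 10 CpGs was called lower. The intergenic CG repeat on chromosome 5 went from 98.8% to 15.03% over 14 CpGs, and an intronic tile of Fry, a large scaffold protein gene, from 95.04% to 15.6% over 11. These tiles were picked for their falls, so the values are a description.

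Of tiles with at least 10 other CpGs and 80% or more in Dnmt1+/+, the 3 that kept most overlapped exons. The Gm15784 tile, on chromosome 6 and 204 kb from the end, was at 99.1% in Dnmt1+/+ and 72.5% in Dnmt1-/-, with 9 of 13 CpGs called lower. An exon of Snrk, a protein kinase gene on chromosome 9, went from 95.5% to 72.1% over 15 CpGs. An exon of Bahcc1 on chromosome 11 went from 97.1% to 66.6% over 19 CpGs. In these tiles most CpGs still differed between the libraries, with 13 of 15 and 14 of 19 called lower in the last pair.

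The rises were concentrated in the HoxC cluster of chromosome 15. This cluster encodes homeodomain transcription factors that specify position along the body axis, and it lies 619 to 735 kb from the end of the chromosome. Of the 322 distal CpGs called higher, 196 were on chromosome 15 and 148 inside the cluster, where 21.2% of 697 CpGs were called higher. Outside the cluster 174 of 32516 distal CpGs were called higher, or 0.535%. Without the cluster the share of rises in the windows is therefore near the 0.462% of the whole table, and tiles higher by 25 points number 3 instead of 12.

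Within the cluster the tiles that rose lay between Hoxc6 and Hoxc4, apart from 1 near Hoxc12. In a Hoxc4 exon 20 other CpGs were at 4.67% in Dnmt1+/+ and 61.9% in Dnmt1-/-, and 19 of them were called higher; pooled calls gave 6.81% (5.51% to 8.38%) and 65.5% (62.1% to 68.6%). The tile that overlaps Hoxc5 and the microRNA gene Mir615 went from 15.6% to 64.0% over 22 CpGs, and the tile at the end of Hoxc6 from 13.7% to 61.3% over 12. Over the gene bodies, beyond 1 kb from the start, Hoxc4 went from 7.72% to 57.6% over 54 other CpGs and Hoxc5 from 16.9% to 65.8% over 24. At the other side of the cluster the bodies of Hoxc13 (9.996% and 13.1%) and Hoxc9 (7.73% and 5.14%) differed by less than 5 points, that of Hoxc11 was at 6.37% and 11.7% over 12 CpGs, and that of Hoxc8 at 10.9% and 32.0% over 4.

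The promoters of the cluster, taken as 1 kb either side of the start, were low in both libraries with a few exceptions. Of 9 HoxC genes 8 had at least 5 other CpGs there: Hoxc5 was higher by at least 10 points, Hoxc10 lower, and 6 within 10 points (median difference -2.63). Over all promoters measured 14.6% were lower, 0.625% higher and the median difference was -1.38. Hoxc5 went from 4.07% to 31.5% with all 8 CpGs called higher. Hoxc8 went from 8.79% to 17.6%, with 7 of 16 CpGs called higher. Hoxc10 went from 25.3% to 7.94%. Hoxc13, the member farthest from the end, was at 7.72% and 2.47% over 52 CpGs.

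**Figure D4:**
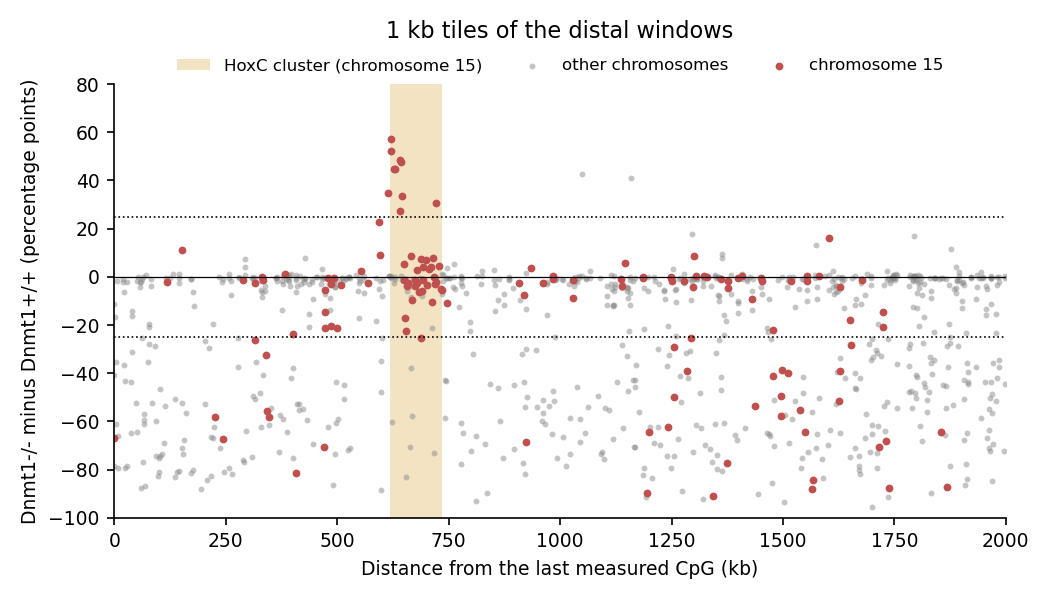
Difference between Dnmt1-/- and Dnmt1+/+ (y axis, percentage points) of 1 kb tiles with at least 5 other CpGs, by distance from the last measured CpG (x axis, kb), with chromosome 15 in red, other chromosomes in grey, the HoxC cluster shaded and dotted lines at 25 points either side of 0. Of the 12 tiles above the upper line 10 lie on chromosome 15 in or beside the shaded cluster, and 380 tiles lie below the lower line.

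Rises elsewhere in the windows were few. Just beyond Hoxc4, on the side of the end, 10 kb bins centred 25.6 and 45.6 kb from its start held 11 and 12 other CpGs called higher. The largest number outside HoxC was 21 other CpGs called higher on chromosome 11, in a bin centred 4.25 kb from the start of Pcyt2, an enzyme gene of phospholipid synthesis. A bin on chromosome 7, centred 182 kb from Cttn, held 11, and a bin centred 32.3 kb from the start of Slc38a10 held 9. The tile with the largest rise outside chromosome 15, on chromosome 7 and 1050 kb from the end, went from 9.68% to 52.4% over 12 CpGs.

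Promoters near the distal ends changed in shares close to those of all promoters. The windows contained the starts of 517 protein-coding genes, and 301 were measured, with 5 or more other CpGs no further than 1 kb from the start. Of these 43 were lower in Dnmt1-/- by at least 10 points, or 14.3%, against 14.6% of all 12487 promoters measured. There were 2 higher by as much, or 0.664%, against 0.625%. The other 256 were within 10 points, and 261 of the 301 were at 20% or less in both libraries.

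The gene nearest the end was measured on each chromosome, 3.70 to 1614 kb from the last CpG, and 16 of the 19 promoters were low in both libraries, at up to 17.5% in Dnmt1+/+ and 13.1% in Dnmt1-/-. Among them were Polr3k, a subunit of RNA polymerase III (0.481% and 1.54%), Wls, which carries Wnt proteins to the cell surface (0% and 0% over 5 CpGs with 115 and 80 calls, which allow up to 3.23% and 4.58% by the Wilson interval), Rfc3, a subunit of the replication clamp loader (7.15% and 1.73%), Ccnd1, cyclin D1 (4.47% and 0.505%), and Itgb1, integrin beta 1 (1.35% and 1.13%). The highest of them was Nalcn, a sodium leak channel gene, at 17.5% and 13.1%.

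The 3 exceptions lay within 38.1 kb of the last CpG. On chromosome 13, 3.70 kb from the last CpG, 3110070M22Rik was at 62.8% in Dnmt1+/+ and 5.13% in Dnmt1-/-, with 57 of 58 other CpGs called lower. Its CpGs were deep, with 255 and 318 calls on average against a window median of 36 and 35 for other CpGs, and whether all these reads came from this copy of the sequence was not tested, so the levels may not be those of this promoter alone. On chromosome 19, 38.1 kb from the end, Csf2ra, the alpha chain of the GM-CSF receptor, went from 49.3% to 6.40%, with 9 of 11 CpGs called lower. On chromosome 11, 24.96 kb from the end, Gm9631 went from 34.6% to 7.20%. The promoter of Klhl17, 20.5 kb from the end of chromosome 4, was not among them, at 7.31% and 0.890%.

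The largest promoter falls were at Tex19.1, Krt72-ps and Actrt2. Tex19.1, a gene of germ cells and placenta on chromosome 11, went from 97.1% (pooled interval 95.5% to 98.4%) to 7.34% (4.996% to 9.80%), with all 6 CpGs called lower. Krt72-ps followed, as given above, and then Actrt2, an actin-related gene of testis, from 87.5% to 11.8% with 13 of 13 called lower. Of 3 germline genes in the windows 2 had at least 5 other CpGs: Tex19.1 was lower, and Nanos1 was at 1.42% and 0.840% over 86 CpGs. Over all promoters 14.6% were lower.

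The type II keratin cluster of chromosome 15, with Krt18 beside it, lies 1.63 to 1.98 Mb from the end. Keratins are the intermediate filaments of epithelial cells, which fibroblasts do not make in quantity. Of 15 listed keratin genes in the windows 5 had enough other CpGs, and each of the 5 was lower by at least 10 points, against 14.6% of all promoters (median -64.2, against -1.38). Krt79 went from 97.1% to 26.7%, Krt4 from 93.8% to 28.8% and Krt73 from 87.2% to 23.0%. The pair found in simple epithelia kept far more: Krt8 went from 97.3% to 79.2%, the highest Dnmt1-/- level of any distal promoter measured, with 3 of 7 CpGs called lower. Krt18 went from 43.3% to 32.3%, with 8 of 26 called lower.

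Besides Krt8, the highest Dnmt1-/- promoter levels were at Dysfip1 on chromosome 11, from 94.0% to 68.3%, and Abhd16b on chromosome 2, from 97.2% to 52.2%. The only other promoter to rise by at least 10 points besides Hoxc5 was that of Pde1b, a cyclic nucleotide phosphodiesterase gene 153 kb from the end of chromosome 15. It went from 3.77% to 14.8%, with 6 of 14 CpGs called higher, while its body went from 72.0% to 12.2% over 8 CpGs.

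**Figure D5:**
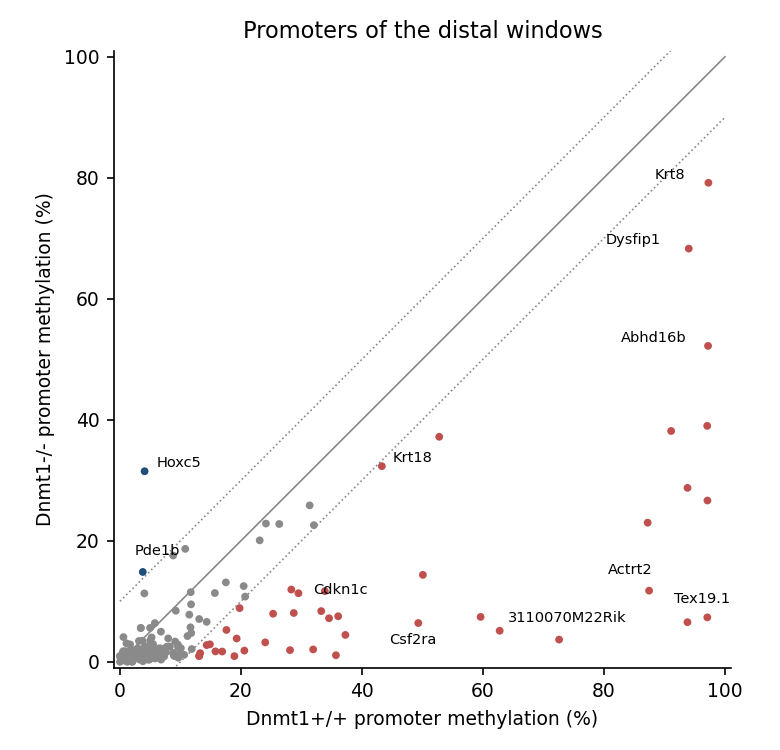
Mean methylation of other CpGs within 1 kb of the start in Dnmt1+/+ (x axis, %) and Dnmt1-/- (y axis, %) for the 301 distal promoters with at least 5 such CpGs, with the line of equality and dotted lines 10 points either side. Red marks the 43 lower by at least 10 points, blue the 2 higher and grey the 256 between; Krt8, Dysfip1 and Abhd16b keep most among promoters high in Dnmt1+/+.

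In the imprinted domain of distal chromosome 7, where genes are expressed from one parental allele, 7 listed genes start in the window and 6 were measured. Cdkn1c, a cell cycle inhibitor, was lower, from 33.3% to 8.38% over 40 CpGs, with 15 called lower. The other 5 were within 10 points, among them Phlda2 (6.80% and 0.355%) and Osbpl5 (9.66% and 0.667%), and the median difference of the 6 was -4.23, against -1.38 over all promoters. With 14.6% of all promoters lower, 1 of 6 is near the share over all.

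Promoters of developmental regulators outside the Hox genes were at 20% or less in both libraries where measured, as were 88.0% of promoters in the rest. Of 7 such transcription factor genes in the windows 6 were measured, and each was within 10 points, as were 10580 of all 12487 promoters. The median difference of the 6 was -5.23, against -1.38 over all promoters. Among them were Hes5, a Notch target, at 10.1% and 2.25% with 15 of 57 CpGs called lower, Gata5 at 13.1% and 7.07%, and Emx2 at 0.864% and 0.922%. The gene bodies were not all low, with 81.7% and 24.9% in Gata5 over 5 CpGs and 68.5% and 20.7% in Prdm16 over 356. Of 4 genes for signalling ligands 3 were measured and each was within 10 points (median -7.19): Fgf3 at 11.9% and 2.11%, Fgf4 at 9.60% and 2.41%, and Fgf15 at 3.21% and 0.377%. Of 7 chemokine receptor genes of distal chromosome 9 only Ccr9 was measured, at 3.44% and 5.58%. None of the 58 olfactory receptor genes of the windows had 5 other CpGs near its start.

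Gene bodies were more methylated in Dnmt1+/+ than most promoters and were lower in Dnmt1-/-. The 151 genes of the windows with at least 10 other CpGs beyond 1 kb of the start had a median of 76.6% in Dnmt1+/+ and 19.16% in Dnmt1-/-. Among 70 bodies at 80% or more in Dnmt1+/+ the Dnmt1-/- median was 31.8%, against 36.7% in the rest, and ran from 6.73% to 64.8%. The genes at either extreme were picked after their values were seen. The lowest were Myt1, a neural transcription factor gene (81.8% and 6.73%), Ptk6, a tyrosine kinase gene (93.1% and 6.91%), and Eif4b, a translation initiation factor gene (94.1% and 6.93%). The highest were Csad, an enzyme gene of taurine synthesis (97.4% and 64.8%), Agrn, agrin (92.1% and 57.4%, 58.0 kb from the end of chromosome 4), and Dvl1, a Wnt signalling gene (97.9% and 56.3%).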

How the data were processed

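The deposited table gave, for each CpG in mm9 (NCBIM37), the depth as a count of methylation calls and the percent methylated in each library. Per the labels and the study's methods a provider made the libraries, processed the reads and mapped them, and the authors kept CpGs with at least 10 calls in both libraries. The submitters' processing notes name Bismark, with no version.

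CpGs were taken as members where their start lay within 2000000 bp of the largest start on chromosomes 1 to 19. Methylated calls were percent times depth. Each CpG weighed the same in a mean, and Wilson 95% intervals were taken on pooled calls; PCR reads are not independent molecules, so intervals and floors cover counting error only. The Fisher test was run over all CpGs of the table and tested on simulated data. Genes and classes came from GENCODE vM1, and sequences from the NCBIM37 reference. Low and high meant 20% or less and 80% or more.

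The positional rule for the members uses no methylation value, but the windows, lists and named tiles were chosen with earlier results of these data known. Named genes were, for each chromosome, the measured protein-coding gene nearest the end, the 3 promoters with the largest fall, the largest rise and the highest Dnmt1-/- level, and members of the lists given in the text. Named tiles followed the same 3 rules, with at least 10 other CpGs. The alternatives are given in the closing section. Scripts ran in python 3.11.15 with pandas 2.3.3, numpy 2.4.6, matplotlib 3.10.9, numba 0.67.0 and scipy 1.17.1. The study's other assays are not used here.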

Additional observations from a re-analysis of the deposited data

How the results depend on the processing

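No paired analysis was possible because only 1 library was made for either genotype. Of 80 alternatives 20 moved a value by less than its interval (or a count by less than 1.5 times), 60 moved it further and 0 reversed a sign. Only the differences between windows and rest could change sign, since levels and counts cannot be negative. The reported values were 54.0% and 29.6% for the windows over all CpGs in Dnmt1+/+ and Dnmt1-/-, -7.88 and -4.22 points for the windows minus the rest, 28.7% for the level kept and -3.47 points for that level minus the rest, and the values below follow this order. Without CpGs in CCGG or TCGA the first 4 were 36.5%, 11.8%, -8.60 and -3.46, and with those CpGs the level kept was 48.3% and its difference -1.73. A depth of at least 20 gave 46.7%, 26.8%, -7.79, -4.39, 29.3% and -3.999. Pooled calls gave 42.5%, 24.9%, -6.13, -3.18, 29.1% and -3.71. Dropping the CpGs deeper than the 99th percentile gave 54.7% and 30.0%. Windows of 1 Mb gave 52.8%, 29.3%, -9.04, -4.50, 27.9% and -4.30, and windows of 5 Mb 59.1%, 32.1%, -2.77, -1.74, 31.5% and -0.645. Equal weight for each chromosome gave 59.2%, 31.5%, -2.90, -2.52, 27.2% and -5.04. With the rest reweighted to the composition of the windows the first pair of differences was -1.65 and -1.25, and against 2 to 10 Mb the 3 differences were -9.56, -5.04 and -5.14.

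CpGs called lower numbered 7392 without CpGs in CCGG or TCGA (where the adjustment covered fewer CpGs), 8375 at a depth of at least 20 and 4889 when thinned to 10 calls, and CpGs called higher 42 when thinned, 197 at an adjusted p under 0.01 and 194 with a difference of at least 25 points. With at least 10 other CpGs in a tile 56 tiles were lower and 7 higher, and at 50 points 252 and 2. With 500 bp either side 1 promoter was higher, and at 25 points 21 were lower and 1 higher. Leaving out the HoxC cluster, chosen after seeing the data, gave 174 CpGs called higher, 3 tiles higher, and a Dnmt1-/- level of 31.1% of Dnmt1+/+ over the windows (32.2% with it) and 33.6% at 0.5 to 1 Mb (39.6%). The direction of the distal difference thus held under each alternative run. The levels over all CpGs came closest to the rest when the rest was reweighted to the composition of the windows, and the level kept came closest to it with windows of 5 Mb. The cause of these shifts was not tested.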
